A study of Homo sapiens with 6 samples.

Results

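Transcripts of 10 genes of TGF-beta signalling were followed in SK-OV3 cells, a human ovarian cancer line, with and without siRNAs to the lncRNA PVT1. The 10 genes are the ligands TGFB1, TGFB2 and TGFB3, the activin subunit INHBA, the receptors TGFBR1 and TGFBR2, the signal transducer SMAD3, the inhibitors SMAD7 and SKIL, and the induced matrix gene TGFBI. They were picked by gene symbol, and all 10 were found among the 59653 genes of the count table. RNA was taken 48 h after transfection of wild-type cells with pooled siRNAs. These were directed against PVT1 (siPVT1, 3 libraries) or were a non-targeting control pool (siControl, 3 libraries). The paper states that SK-OV3 cells do not express p53, so wild-type here does not refer to p53. Both groups come from a single cell line, and the labels do not say whether replicates were separate cultures, so p-values measure the spread between these libraries, which may be technical. With 1 siRNA pool against PVT1, effects of the pool and of lower PVT1 cannot be told apart.

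TGF-beta ligands are secreted in a latent form that is held in the matrix until it is released. The active ligand brings together the type II receptor TGFBR2 and the type I receptor TGFBR1, which phosphorylates SMAD2 and SMAD3, and these move with SMAD4 to the nucleus and change transcription. Activins, built from INHBA or INHBB subunits, reach the same SMADs through the ACVR receptors. SMAD7 and SKIL are induced by the pathway and restrain it, SMAD7 at the receptor and SKIL on the SMADs in the nucleus. In epithelial cells the pathway is known for slowing growth, building matrix and driving epithelial-mesenchymal transition.

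SMAD complexes bind DNA at the short SMAD box CAGAC, or GTCTG on the other strand, and at the palindrome GTCTAGAC. The promoters of SMAD7 and SMAD3 are shown because these genes, an inhibitor and a transducer of the same pathway, moved in opposite directions. RefSeq sequences (GRCh38.p14) were at hand for all 10 genes, and the 250 bases before the first listed start were searched on both strands. Capitals mark a SMAD box in the promoter sequences and the palindrome in the last sequence. The SMAD7 window is chr18:48950966-48951215 on the minus strand, the SMAD3 window is chr15:67065352-67065601 on the plus strand, and the palindrome lies in chr18:48952207-48952236, shown on the minus strand as SMAD7 is read. Both SMAD7 stretches lie upstream of the annotated gene, and the SMAD3 window lies within the annotated span of SMAD3, which has another start further upstream.
SMAD7 promoter: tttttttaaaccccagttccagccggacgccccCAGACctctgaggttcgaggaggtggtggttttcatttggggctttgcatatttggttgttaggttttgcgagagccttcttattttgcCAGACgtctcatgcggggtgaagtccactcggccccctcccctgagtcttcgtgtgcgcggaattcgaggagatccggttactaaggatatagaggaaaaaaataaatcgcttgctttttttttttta
SMAD3 promoter: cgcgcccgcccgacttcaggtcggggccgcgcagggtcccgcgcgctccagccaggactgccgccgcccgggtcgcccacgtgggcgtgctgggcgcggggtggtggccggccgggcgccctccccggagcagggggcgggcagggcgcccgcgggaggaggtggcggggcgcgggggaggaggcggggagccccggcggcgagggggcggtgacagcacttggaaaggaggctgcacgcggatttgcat
SMAD7 palindrome: agcgacagggtGTCTAGACggccacgtgac
The SMAD7 window held 2 SMAD boxes and the SMAD3 window 0, and the boxes of SMAD7 do not overlap. A SMAD box stood in 5 of the 10 windows (TGFB2, TGFB3, TGFBR1, SMAD7 and SKIL) and in 38% of the 35116 windows of that length in the table. The palindrome was found within 1500 bases of the start in SMAD7 alone among the 10 genes, at position -1260, and in 1.78% of all starts. That distance was widened after a search closer to the start had found none in the 10 genes. These matches describe the letters of the windows and were not tested as binding sites.

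The total count per library lay between 28383171 and 35059576, and the 10 genes took between 0.294% and 0.345% of it. No pair of libraries within a group agreed to sampling noise, so each library was counted as 1 sample. The epithelial and ovarian list summed to 27145 to 30466 normalized counts in siControl and 33047 to 36648 in siPVT1, but its genes went both ways. KRT8, KRT18, KRT19 and PAX8 were higher in every siPVT1 library than in any siControl library, and KRT7, ERBB2 and WT1 were lower. CDH1 (0 to 47.0) and EPCAM (41.3 to 127) were low in the libraries and overlapped between the groups, as did MUC16. Of 5 leukocyte markers, CD3E had 0 counts in all libraries and PTPRC at most 3 counts, while ITGAM carried the sum, which was 195 to 197 in siControl and 9.83 to 16.0 in siPVT1. Of 5 fibroblast markers COL3A1 had at most 3 counts, and the sum was 97.0 to 123 in siControl and 309 to 362 in siPVT1, led by PDGFRB. The 4 endothelial markers summed to 2067 to 2110 in siControl and 8665 to 10932 in siPVT1, nearly all of it CDH5. Each of the 4 was higher in every siPVT1 library, with log2 fold changes of 2.99 (PECAM1), 2.22 (CDH5), 1.66 (VWF) and 1.01 (KDR). The part of these markers in the results below was not tested.

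PVT1 itself, the target of the siRNAs, had 3298, 4090.5 and 3377 normalized counts in the siControl libraries, in the order of replicates 1, 2 and 3 that is kept throughout, and 2349.7, 2111 and 2062 after siPVT1. Every siPVT1 library lay below every siControl library, with a log2 fold change of -0.72 (its standard error, SE, was 0.097; adjusted p = 0.000342).

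Normalized counts are the deposited counts scaled by TMM to a common effective library size. The groups were compared with the quasi-likelihood test of edgeR on 19008 genes, with Benjamini-Hochberg adjustment over all of them. A gene is said to have risen or fallen at an adjusted p under 0.05, and to be past both thresholds if its log2 fold change was also at least 1 in size. Much of the transcriptome moved, since 57.9% of all tested genes had an adjusted p under 0.05, and 21.5% were past both thresholds (11.8% higher and 9.64% lower). With scaling by the total count alone, 1835 genes were higher and 2355 lower past both thresholds, in place of 2248 and 1833.

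All 10 genes were tested. SMAD3, TGFB1, TGFBR1, TGFBR2 and INHBA rose in siPVT1, and TGFBI, SMAD7 and TGFB3 fell, while TGFB2 and SKIL did not pass the test. The 5 that rose compare with 29.5% of all tested genes and the 3 that fell with 28.4%, and the 8 together make 80% of the 10, against 57.9%. Past both thresholds were 3 of the 10 (30%, against 21.5% of all tested genes), SMAD3 as higher and TGFBI and TGFB3 as lower. The median log2 fold change of the 10 was 0.29, against 0.001 over all genes tested. In 8 of the 10 the siPVT1 libraries did not overlap the siControl libraries, which held for 65.6% of all tested genes. Since the cells were sampled in bulk, fewer expressing cells and less RNA per cell cannot be told apart.

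**Figure D1:**
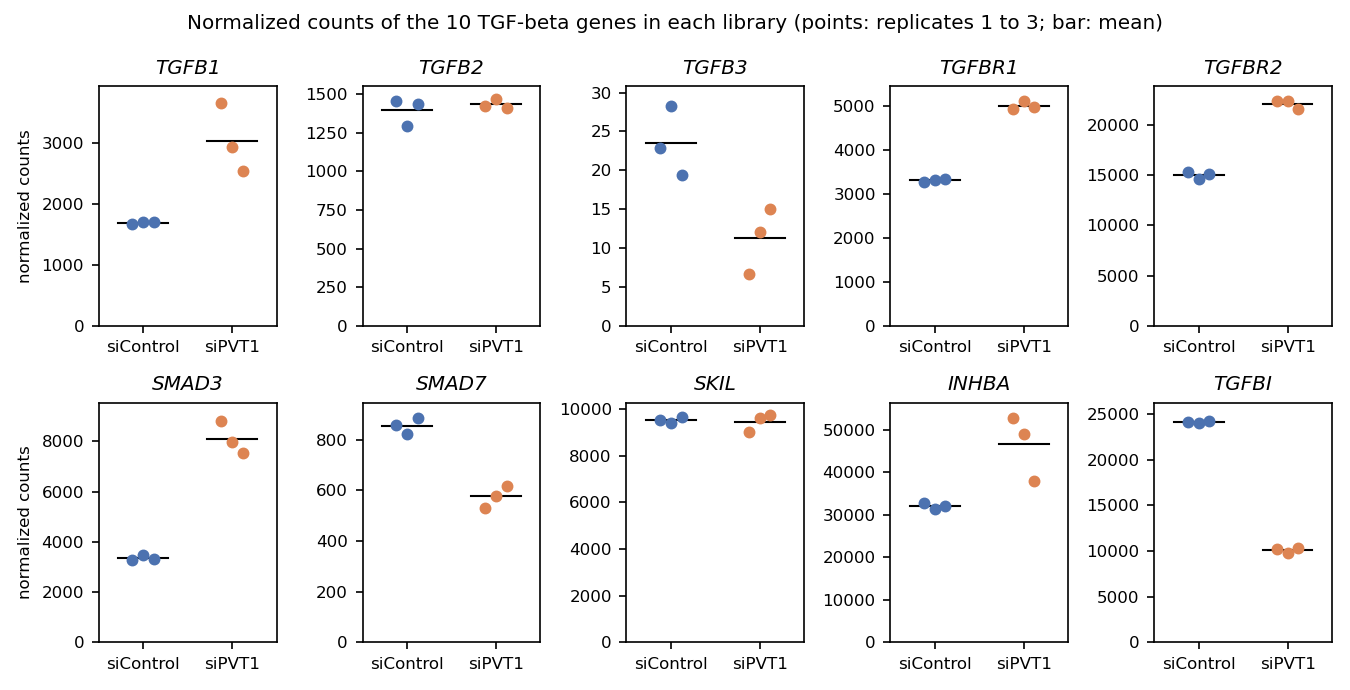
Normalized counts of each of the 10 genes, with a separate vertical axis from 0 in each panel, for siControl (blue) and siPVT1 (orange). Points are the 3 libraries of a group in the order of their replicate numbers and the bar is their mean. TGFB2 and SKIL overlap between the groups, and the other 8 genes do not.

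TGFB1, the most widely expressed of the 3 isoforms, lies on the minus strand of chromosome 19 (41301587 to 41353922 in GRCh38). It had 1678, 1698 and 1708 normalized counts in siControl and 3646, 2930.4 and 2536 in siPVT1. The siControl libraries were nearly level, whereas the siPVT1 libraries were all higher and spread widely, with replicate 1 at the top. The mean rose from 1695 ± 15.3 to 3037.5 ± 563 (SD, n = 3 each), a 1.79-fold increase that stayed under the fold threshold (log2 fold change 0.84, SE 0.121, adjusted p = 0.000512). Without siPVT1 replicate 1 the log2 fold change was 0.67. Exons of TGFB1 overlap those of HNRNPUL1 on the other strand. HNRNPUL1 had more counts than TGFB1 and went from 8133 ± 74.3 to 9102 ± 349 normalized counts (SD, n = 3 each). Its log2 fold change was 0.16 (adjusted p = 0.032). The strand setting of the counting is not given in the sources used here, and whether the 2 genes share reads was not tested.

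TGFB2, on the plus strand of chromosome 1 (218345336 to 218444619), had 1451, 1292 and 1437 normalized counts in siControl and 1423, 1468.5 and 1407 in siPVT1. The groups overlapped, with both the lowest value and the next to highest in siControl. The log2 fold change was 0.04, with a 95% interval from -0.12 to 0.20 (adjusted p = 0.649). With scaling by the total count alone, which moved the median of all genes from 0.001 to -0.148, the log2 fold change of TGFB2 moved with it to -0.11 (adjusted p = 0.153).

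TGFB3, on the minus strand of chromosome 14 (75958097 to 75983011), was close to the limit of what this depth can measure. It had 22.9, 28.3 and 19.4 normalized counts in siControl and 6.68, 12.02 and 15.0 in siPVT1. Every siPVT1 library was lower, but the raw counts behind these values range only from 6 to 28. The fall was 2.05-fold (log2 fold change -1.04, SE 0.345, adjusted p = 0.031). This call was lost in DESeq2, where the adjusted p was 0.065, and in 4 of the 6 fits that leave out 1 library, those without siControl replicate 1 or 2 or without siPVT1 replicate 1 or 2 (adjusted p from 0.0672 to 0.0957).

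Per transcript length, TGFB1 was the leading isoform in every library. Its share of the summed counts per kilobase of TGFB1, TGFB2 and TGFB3 was 70.4%, 72.8% and 71.0% in siControl and 84.3%, 80.6% and 78.9% in siPVT1. The share of TGFB2 was 27.8% ± 1.38 in siControl and 18.5% ± 2.63 in siPVT1 (SD, n = 3 each), although its own level per kilobase was 237.5 and 244 on average. TGFB3 made 0.804% ± 0.166 and 0.257% ± 0.127 (SD, n = 3 each). For each of the 3 shares the groups did not overlap (exact two-sided permutation p = 0.1, below which 3 against 3 libraries cannot go). The shares depend on each other and are built from the gene levels reported above, so these are not 3 separate tests. The summed level went from 854 ± 13.2 to 1340.1 ± 202 counts per kilobase (SD, n = 3 each, exact permutation p = 0.1).

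**Figure D2:**
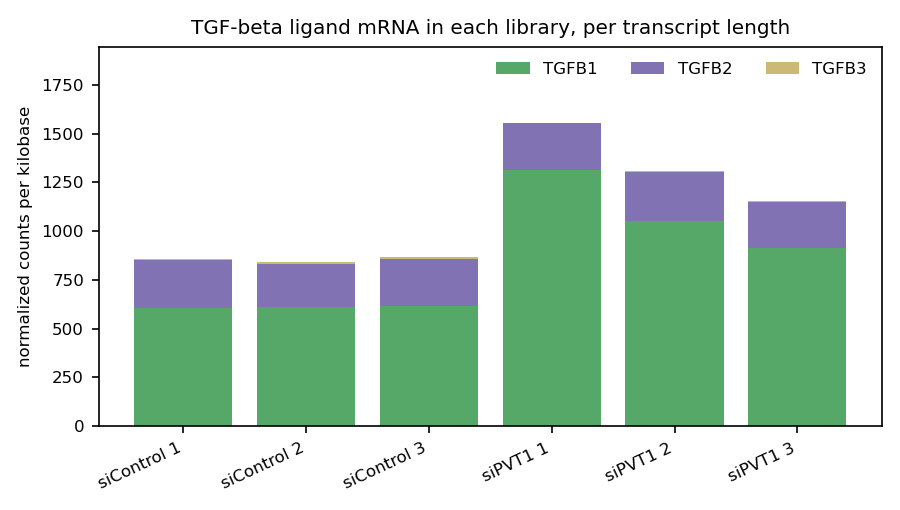
Stacked bars of normalized counts per kilobase of the canonical transcript (vertical axis, from 0) for TGFB1, TGFB2 and TGFB3 in each of the 6 libraries. The TGFB2 part has nearly the same height in all bars, the TGFB1 part is taller in the 3 siPVT1 bars, and TGFB3 is barely visible.

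INHBA, which encodes the subunit of activin A, lies on the minus strand of chromosome 7 (41667168 to 41705834). Its normalized counts were 32759, 31421 and 32087 in siControl and 52720.5, 49104 and 37989.8 in siPVT1. All siPVT1 libraries were higher, and replicate 3 was far below the other siPVT1 libraries. The mean rose from 32089 ± 669 to 46605 ± 7677 (SD, n = 3 each), or 0.54 as a log2 fold change (SE 0.112, adjusted p = 0.00361). With 1 library left out at a time it stayed between 0.43 and 0.65. Per kilobase INHBA stood above TGFB1 in every library, with means of 5307.5 against 609.6 in siControl and 7708 against 1093 in siPVT1. The antisense gene INHBA-AS1 overlaps it, with at most 67 counts in a library. INHBA-AS1 fell, with a log2 fold change of -1.07 (adjusted p = 0.00228).

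The receptor genes rose together and with little spread. TGFBR1, the type I receptor kinase on the plus strand of chromosome 9 (99104038 to 99154192), had 3259.7, 3319.7 and 3343 normalized counts in siControl and 4940.0, 5100.4 and 4982 in siPVT1. TGFBR2, the type II receptor kinase on the plus strand of chromosome 3 (30606601 to 30694142), had 15332, 14631 and 15078 in siControl and 22313, 22307 and 21533 in siPVT1. For both genes the groups were far apart compared with the spread within them. TGFBR1 rose 1.51-fold (log2 fold change 0.60, SE 0.052, adjusted p = 3.52e-05) and TGFBR2 1.47-fold (0.55, SE 0.053, adjusted p = 5.44e-05), both under the fold threshold. The ratio of TGFBR2 to TGFBR1 in counts per kilobase was 6.51 ± 0.215 in siControl and 6.31 ± 0.145 in siPVT1 (SD, n = 3 each), and the groups overlapped (exact two-sided permutation p = 0.3).

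SMAD3, the transcription factor that the activated receptor phosphorylates, rose more than any other of the 10 genes. It lies on the plus strand of chromosome 15 (67063763 to 67195173) and had 3279, 3495.5 and 3309 normalized counts in siControl and 8816, 7983 and 7530.1 in siPVT1. Every siPVT1 library held more than all siControl libraries, with replicate 1 the highest. The mean rose from 3361 ± 117 to 8109.8 ± 652.5 (SD, n = 3 each), a 2.41-fold increase (log2 fold change 1.27, SE 0.072, adjusted p = 4.67e-06). It was past both thresholds in every alternative run, with log2 fold changes from 1.12 to 1.305.

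SMAD7, the inhibitory SMAD whose upstream sequence is shown above, fell. On the minus strand of chromosome 18 (48919853 to 48950965), it had 859.9, 821 and 884 normalized counts in siControl and 531, 579 and 618 in siPVT1. All siPVT1 libraries were below all siControl libraries. The log2 fold change was -0.57 (SE 0.081, adjusted p = 0.000486), a 1.48-fold decrease. A ratio chosen after the values were seen, that of SMAD3 to SMAD7 in counts per kilobase, was 1.97, 2.20 and 1.94 in siControl. In siPVT1 it was 8.58, 7.12 and 6.29. Since SMAD3 was higher and SMAD7 lower in every siPVT1 library, the groups could not overlap in this ratio. It only describes the changes of both genes and is no further test.

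SKIL, a nuclear corepressor of SMADs also called SnoN, lies on the plus strand of chromosome 3 (170357342 to 170396835) and was close to level. It had 9530.5, 9408 and 9633.5 normalized counts in siControl and 9001, 9589 and 9746 in siPVT1. The siPVT1 group held both the lowest and the highest library. The log2 fold change was -0.01, with a 95% interval from -0.14 to 0.12 (adjusted p = 0.868). With the total count as the only scaling, which moved the median of all genes to -0.15, SKIL had a log2 fold change of -0.16 (adjusted p = 0.0291).

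TGFBI, a secreted matrix protein named for its induction by TGF-beta, fell more than any other of the 10 genes. It lies on the plus strand of chromosome 5 (136028988 to 136063818). Its normalized counts were 24073, 23984 and 24277 in siControl and 10276, 9777 and 10334 in siPVT1. The libraries of each group were tightly grouped and far from those of the other. The mean fell from 24111.5 ± 150.3 to 10129 ± 306 (SD, n = 3 each), a 2.38-fold decrease (log2 fold change -1.25, SE 0.053, adjusted p = 1.5e-06). It was past both thresholds in every alternative, with log2 fold changes from -1.40 to -1.24.

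**Figure D3:**
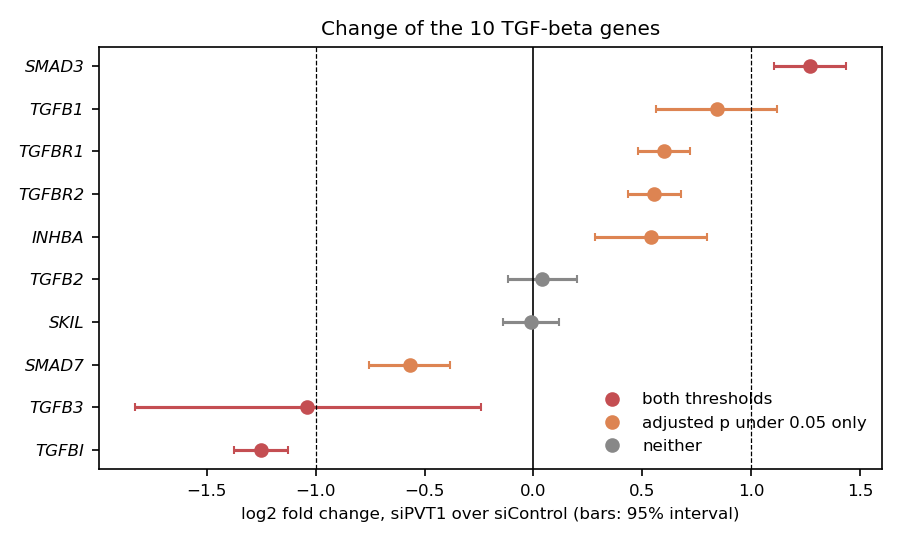
Log2 fold change of siPVT1 over siControl (horizontal axis) for each of the 10 genes, with 95% intervals as bars and dashed lines at the fold threshold of 1 in either direction. SMAD3 at 1.27 and TGFBI at -1.25 lie beyond the dashed lines with their whole intervals, and the interval of TGFB3 is the widest, from -1.83 to -0.24.

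For each gene past both thresholds, the closest profile among 58 other tested pathway genes was sought by the Euclidean distance of centred log2 values over the 6 libraries. LTBP1 was nearest to SMAD3 (distance 0.276), TGM2 to TGFBI (0.302) and KLF10 to TGFB3 (0.801). Values were centred over all 6 libraries, so a similar fold change by itself brings 2 genes close. The nearest genes had log2 fold changes of 1.43 (LTBP1), -1.22 (TGM2) and -0.75 (KLF10). The distances describe these libraries only, and shared variation within the groups was not tested.

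The rest of the pathway was read from 6 lists with 65 genes, of which 58 had enough counts to be tested. Of these, 27 rose and 15 fell, together 72.4% against 57.9% of all tested genes (29.5% rose and 28.4% fell), and these shares are the background for each list below. Past both thresholds were 11 higher and 5 lower, together 27.6% against 21.5% of all tested genes. With scaling by the total count the split past both thresholds was 9 higher and 7 lower.

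Among ligands and extracellular antagonists, 4 of 5 tested genes rose and 0 fell, against 29.5% and 28.4% of all tested genes. INHBB, the subunit of activin B, had 44.8, 51.5 and 46.2 normalized counts in siControl and 233, 252 and 238 in siPVT1. FST encodes follistatin, which binds activins and keeps them from their receptors, and had 268.5, 249.5 and 226 in siControl and 879.8, 883 and 1022 in siPVT1. All siPVT1 libraries were higher for each of these genes, with log2 fold changes of 2.34 (INHBB, adjusted p = 2.83e-06) and 1.90 (FST, adjusted p = 3.46e-06). The ligand subunit and the antagonist of activin thus rose side by side with INHBA. The 6 genes not tested, among them INHA, NODAL and LEFTY1, had at most 11 counts in any library.

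Among genes of latency and activation, 6 of 11 rose and 3 fell, the falls at a share near the 28.4% of all tested genes. LTBP1 and LTBP3 encode proteins that tie latent TGF-beta to the matrix, and ITGB8 encodes an integrin subunit that can release the active ligand. LTBP1 rose from 267 ± 9.29 to 722 ± 98.5, LTBP3 from 415 ± 19.2 to 1175 ± 230 and ITGB8 from 140.5 ± 37.1 to 848 ± 103 normalized counts (SD, n = 3 each). The log2 fold change was 1.43 for LTBP1 (adjusted p = 2.2e-05) and 2.59 for ITGB8 (adjusted p = 1.25e-05), and LTBP3 lay between them (adjusted p = 5.48e-05). THBS1, a matrix protein that can also activate latent TGF-beta, had 26630, 26026 and 26237 normalized counts in siControl and 7363, 7168 and 8886 in siPVT1. It fell by 1.75 on the log2 scale (adjusted p = 2.70e-06). FURIN, the protease that cuts the TGF-beta precursor, was named after its values were seen. It fell from 2524.5 ± 59.4 to 1263 ± 83.4 (SD, n = 3 each), just short of the fold threshold (SE 0.068, adjusted p = 1.05e-05). FURIN crossed the fold threshold in several alternatives. Among them were DESeq2 (log2 fold change -1.01), scaling by the total count (-1.15) and the replicate block (-1.001). It stayed short of it with no filter and with filterByExpr. With 1 library left out at a time it lay on either side, between -1.07 and -0.97.

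Of the 8 receptors and coreceptors other than TGFBR1 and TGFBR2, 5 rose and 1 fell, against 29.5% and 28.4% of all tested genes. With scaling by the total count 3 rose and 2 fell. ACVR2B, a type II activin receptor, had 890.4, 972 and 884 normalized counts in siControl and 3065, 3198 and 3028 in siPVT1 (log2 fold change 1.76, adjusted p = 8.75e-07). ACVRL1, a type I receptor best known from endothelium, rose from 81.3 ± 2.83 to 327 ± 61.9 (log2 fold change 2.003, adjusted p = 1.92e-05). TGFBR3, a coreceptor that presents ligand, rose from 870.0 ± 27.8 to 1828 ± 131 (log2 fold change 1.07, adjusted p = 1.08e-05). For TGFBR3 the log2 fold change was 0.92 with scaling by the total count and 0.99 without siPVT1 replicate 3, both under the fold threshold. BAMBI, a decoy receptor without a kinase, had 785, 740.5 and 897 normalized counts in siControl and 327, 225 and 191 in siPVT1. It fell by 1.71 on the log2 scale (adjusted p = 0.000107).

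SMAD2, which shares the role of SMAD3, went from 1704 ± 45.4 to 1912 ± 104 normalized counts (SD, n = 3 each) without passing the test (log2 fold change 0.17, adjusted p = 0.056, or 0.0135 without siPVT1 replicate 3), and SMAD4, the common partner, fell by 0.28 on the log2 scale (adjusted p = 0.00574). Whether these changes differed from that of SMAD3 was not tested. TGFBRAP1, a receptor adaptor that binds SMAD4, fell from 2239 ± 37.2 to 809.8 ± 70.4 (SD, n = 3 each, log2 fold change -1.47, adjusted p = 3.16e-06). Of 11 tested genes in the list of negative regulators, 3 rose, 4 fell and 0 were past both thresholds. That list leaves out SMAD7 and SKIL, and also BAMBI, the decoy receptor counted above with the receptors, which fell past both thresholds. The 63.6% that passed the test is near the 57.9% of all tested genes. One of them, PMEPA1, a feedback inhibitor that retains SMADs, had 1889, 1862 and 1935 normalized counts in siControl and 1694, 1690.3 and 1694 in siPVT1. Its log2 fold change was -0.16 (adjusted p = 0.0334), and the call was lost without a filter (adjusted p = 0.118) and without siControl replicate 1, 2 or 3 or siPVT1 replicate 2 (adjusted p from 0.0546 to 0.117).

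Genes that TGF-beta is known to induce did not move one way. Of 18, 9 rose, 4 fell and 5 did not pass the test, with a median log2 fold change of 0.20, beside 29.5% higher and 28.4% lower among all tested genes. Without siPVT1 replicate 1 there were 9 higher and 7 lower, and past both thresholds 1 higher and 3 lower in place of 3 and 2. Scaling by the total count gave a median of 0.055. CCN2, a matricellular growth factor, rose by a log2 fold change of 0.64 (adjusted p = 0.000437). A pattern seen in the values was that in siPVT1 CCN2, FN1, ITGA2, INHBA and TGFB1 were each highest in replicate 1 and lowest in replicate 3. It was not particular to these genes. The same order held for SMAD3, LTBP1, LTBP3, ACVRL1 and COL1A1, for TGM2 and BAMBI, which fell, and for PVT1. Other genes, among them SMAD7, SKIL and TGFB3, had the opposite order. COL1A1, a fibrillar collagen chain, rose from 113 ± 8.70 to 505 ± 7.70 normalized counts (SD, n = 3 each, log2 fold change 2.15, adjusted p = 1.64e-06). FN1, which encodes fibronectin, rose from 130342 ± 2769 to 292731 ± 68646 (SD, n = 3 each, log2 fold change 1.17, adjusted p = 0.000283). ITGA2, a collagen-binding integrin subunit, rose from 11318 ± 203 to 23781 ± 5080.1 (SD, n = 3 each, log2 fold change 1.07, adjusted p = 0.000316). Without siPVT1 replicate 1 the log2 fold changes were 0.97 for FN1 and 0.92 for ITGA2, under the fold threshold. PTHLH, which encodes a parathyroid hormone-like secreted protein, fell from 308 ± 6.35 to 76.4 ± 14.4 (SD, n = 3 each, log2 fold change -2.005, adjusted p = 1.17e-05). TGM2, a protein-crosslinking enzyme, fell from 59807 ± 794 to 25686 ± 3809.7 (SD, n = 3 each, log2 fold change -1.22, adjusted p = 2.71e-05), beside TGFBI.

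**Figure D4:**
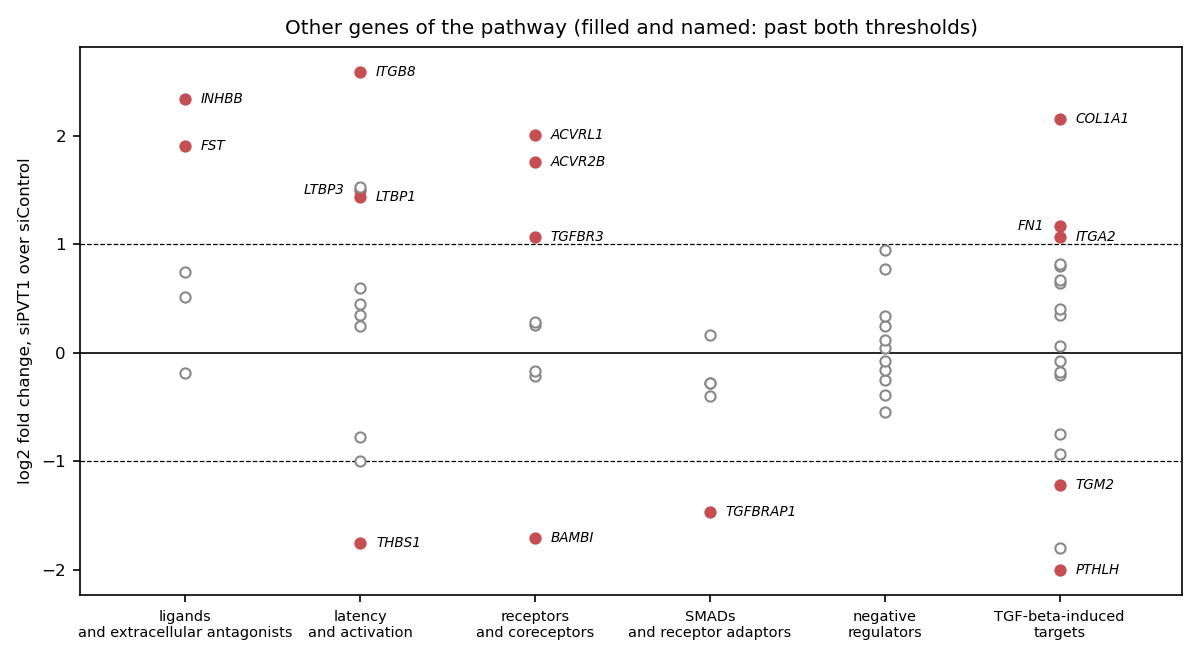
Log2 fold change of siPVT1 over siControl (vertical axis) for the 58 other tested pathway genes, in 6 lists along the horizontal axis. Filled points with names are past both thresholds, open points are not, and dashed lines mark the fold threshold of 1. Ligands and antagonists have 2 filled points, both above 0, and induced targets have filled points on both sides of 0. The list of negative regulators has 0 filled points, with BAMBI placed among the receptors.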

How the data were processed

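Poly(A)-selected libraries of SK-OV3 RNA (KAPA mRNA HyperPrep, single-end reads) were processed by the authors with STAR for alignment and Salmon for counting, on GRCh38.p13 with a GENCODE transcriptome. The submitters' processing notes name STAR 2.7.3a and Salmon 0.14.1. The deposited values are Salmon's estimated counts, listed by gene symbol and already whole, so they were not rounded here, and they were not normalized. Of 59653 genes 25268 were at 0 throughout. The 6 columns were matched to samples by the submitters' library names. Salmon estimates how reads divide between similar transcripts, and overlapping genes on opposite strands may share reads.

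From these counts edgeR 4.0.16 (R 4.3.3, limma 3.58.1) was run with TMM scaling, siRNA as the only term, and a filter that kept a gene if 3 or more libraries reached 5 normalized counts. That filter is how the methods' sentence on low counts was read. Standard errors are the log2 fold change divided by the root of the quasi-likelihood F. The paper used DESeq2, and here DESeq2 1.42.0 was an alternative. At the thresholds the paper names, 4081 genes were called here with edgeR and 3777 with DESeq2. Both numbers are several times the number of differentially expressed genes that the paper reports. The cause of this difference was not tested. The fit was tested on simulated data first. Per-kilobase levels used the length of the canonical transcript in GENCODE 44, which also gave the coordinates in GRCh38.

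The 10 genes and the pathway lists were chosen with earlier results of these data known. The text names the 10 genes, PVT1, list genes past both thresholds, and SMAD2, SMAD4, PMEPA1 and CCN2, plus for each of the 10 past both thresholds its nearest list gene. FURIN was added after its values were seen. INHA, NODAL and LEFTY1 are named as untested. Some genes of the lists are counted in them but not reported here by name. The alternatives were DESeq2, its size factors, total-count scaling, no filter, filterByExpr, a replicate block, each library left out, a test against a 2-fold change and, added after the data were seen, the adjusted p-value alone. The labels do not say whether replicate numbers pair the libraries, and the main fit did not pair them.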

Additional observations from a re-analysis of the deposited data

How the results depend on the processing

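SMAD3, TGFB1, TGFBR1, TGFBR2, INHBA, SMAD7, TGFBI and PVT1 kept their direction and their side of both thresholds in every alternative that keeps the fold threshold. TGFB3 did not. Its log2 fold change was -1.07 in DESeq2, -1.06 with the replicate block and -1.04 in the test against a 2-fold change, and it was called in none of these, so that 1 of the 10 genes was lower past both thresholds in place of 2. With 1 library left out it lay between -1.33 and -0.80, with 1 to 2 of the 10 genes lower. The cause was not tested. TGFB2 and SKIL, which did not pass the test as reported, changed sign, TGFB2 to -0.108 with scaling by the total count and between -0.010 and 0.064 with 1 library left out, and SKIL between -0.051 and 0.007 with 1 library left out. With scaling by the total count SKIL was at -0.161 (adjusted p = 0.0291).

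The test against a 2-fold change left 1976 of 4081 genes, 1184 higher and 792 lower, because it asks more of each gene. With the adjusted p-value alone, 11007 genes were called, 5612 higher and 5395 lower. Of the 10 genes 5 were then called higher (TGFB1 at 0.84, TGFBR1 at 0.60, TGFBR2 at 0.55 and INHBA at 0.54 beside SMAD3) and 3 lower (SMAD7 at -0.57 joined), PVT1 was called at -0.72, and 27 other pathway genes were higher and 15 lower. FN1, ITGA2, TGFBR3 and TGM2 passed no test against a 2-fold change.

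Same-numbered libraries of the 2 groups deviated with correlations of -0.04, 0.03 and 0.00 (replicates 1, 2 and 3). Not every library correlated best with its own number. The counts thus showed no pairing by number, but they cannot show whether same-numbered samples were handled together. The fit with the replicate block gave 3924 genes past both thresholds, and PMEPA1 had an adjusted p of 0.0843 in it. For TGFB1, TGFB2 and TGFB3 the longest transcript has the length of the canonical one (2780, 5868 and 3431 bases). Using the longest transcript therefore could not change their shares and tests nothing.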
